A study of Mus musculus with 52 samples.

Results

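Endothelial cells (ECs) of the posterior pituitary in which beta-catenin had been stabilized were set against ECs of the wild-type (WT) cerebellum, to ask which genes in the altered cells had come up to the level of a vessel that holds a blood-brain barrier (BBB) and which still separated both cell populations. The comparison rests on 4 of the 40 RNA-seq libraries among the 52 samples of the series, chosen by their labels: the 2 libraries of GFP-positive cells sorted from the posterior pituitary of beta-catenin stabilized mice and the 2 from the WT cerebellum. The WT mice carried Tie2-GFP, in which Tie2 regulatory sequences drive GFP in ECs. The stabilized mice carried Tie2-GFP, the BcatEx3fl allele of the beta-catenin gene and Pdgfb-CreER, a Cre recombinase that acts in ECs after 4-hydroxytamoxifen (4HT), and had received 100 µg of 4HT at postnatal day 10. Removal of exon 3 leaves a beta-catenin protein that escapes degradation. Recombination in the posterior pituitary is mosaic according to the study, so that the sorted cells can include ECs with an unrecombined allele. Only males were used, and each replicate pooled pituitary ECs of 20 to 30 animals aged 30 to 90 days. Tissue, Cre, 4HT and the beta-catenin allele all differ between both groups and cannot be told apart in this comparison. Values from 2 further pairs of GFP-positive libraries were therefore printed beside it: WT posterior pituitary, which shows where the ECs started, and stabilized cerebellum, which shares the genotype and 4HT.

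Capillaries of most of the brain form the BBB through tight junctions, a low rate of vesicular transport and a set of carriers for glucose, amino acids, lipids, hormones and iron. Canonical Wnt signaling, in which beta-catenin acts with transcription factors of the TCF/LEF family, induces and maintains that state in brain ECs. Posterior pituitary capillaries are instead fenestrated and permeable, which lets neurohormones enter the blood, and their ECs show little canonical Wnt signaling.

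Open chromatin gave sequences near genes at very different levels in the stabilized cells. ATAC-seq peaks (regions where a transposase can insert) were found in both WT cerebellum libraries at 20617 places, of which 4510 had no peak in either WT posterior pituitary library. The TCF/LEF motif, searched as TTCAAAG and ATCAAAG on both strands within 100 bases of the summit, stood in 21.1% of those 4510 peaks, in 3.61% of the 16107 peaks shared with WT posterior pituitary and in 7.44% of all 20617. It stood in 23.4% of the 2366 peaks that both stabilized posterior pituitary libraries had gained and in 18.6% of the 2144 that they had not both gained. The peaks missing in WT posterior pituitary were narrower (median 448.5 against 609 bases) and lower (median 5.40-fold against 8.63-fold) than the shared ones, so the shares are a description, and a match of these letters is not a shown binding site. The windows below are the plus strand of GRCm38, read from RefSeq's copy of the genome, and capitals mark 1 match of the motif or its reverse complement in each. The Tnfrsf19 window holds a further match, ctttgat, in lower case. The first 4 lie in peaks present in WT cerebellum and in both stabilized posterior pituitary libraries, beside genes that rose there (the 3 Wnt targets Nkd1, Axin2 and Tnfrsf19 and the glucose carrier Slc2a1), and the last 2 in peaks absent from both, beside genes that stayed far below WT cerebellum. They were picked as examples, and other peaks differed: motif peaks near Ddc, Slco1c1 and Foxq1, which rose but stayed far below WT cerebellum, were present in both stabilized libraries, and a motif peak 10214 bases before Tnfrsf19 was in neither.
Nkd1, chr8:88495300-88495346: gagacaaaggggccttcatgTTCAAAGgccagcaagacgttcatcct
Axin2, chr11:108936546-108936592: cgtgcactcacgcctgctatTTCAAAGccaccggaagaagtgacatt
Tnfrsf19, chr14:61012605-61012651: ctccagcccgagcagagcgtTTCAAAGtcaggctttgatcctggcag
Slc2a1, chr4:119044438-119044484: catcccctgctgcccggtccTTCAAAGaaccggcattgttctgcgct
Slc16a1, chr3:104573807-104573853: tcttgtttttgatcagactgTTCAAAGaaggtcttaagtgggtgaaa
Slc38a5, chrX:8260814-8260860: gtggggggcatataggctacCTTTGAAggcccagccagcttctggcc
The windows of Axin2 and Tnfrsf19 lie in introns of those genes in GENCODE M21, and the other 4 lie outside annotated genes, with the Nkd1 peak 26023 bases before the start of its gene, that of Slc2a1 64232, that of Slc16a1 64833 and that of Slc38a5 10263. The peak in Tnfrsf19 was enriched 14.2 and 14.7-fold over local background in WT cerebellum and 11.2 and 10.6-fold in stabilized posterior pituitary, whereas the Slc16a1 peak, 9.51 and 9.45-fold in WT cerebellum, was not called in either stabilized posterior pituitary library. All 6 peaks were present in both stabilized cerebellum libraries.

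The libraries held 22235558 and 24501141 estimated reads in stabilized posterior pituitary and 33342378 and 28067992 in WT cerebellum, and they differed in more than their ECs. Protein-coding genes took 36.4% and 36.2% of the TPM (each transcript's length-corrected share of its library) in stabilized posterior pituitary, against 59.9% and 51.0% in WT cerebellum, while a single entry, Mir6236, took 33.4% and 32.4% against 15.1% and 19.3%. TPM add up to a fixed total, and over the 5249 genes at 5 TPM or more in all 4 libraries the median log2 ratio was -0.45 on TPM and 0.03 on counts normalized by TMM, and the tests below used the counts. Shorter genes also stood higher in the stabilized posterior pituitary, with a median log2 fold change of 0.35 over the 3583 shortest genes tested and -0.23 over the 3583 longest.

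Markers of other cells moved with the groups. Calls are those of the test described below, which called 1.8% of all genes higher and 1.54% lower. Summed over 10 microglial markers the level was 257 to 346 TPM in stabilized posterior pituitary and 12.2 to 18.6 TPM in WT cerebellum, and 6 of the 10 were called higher, none lower. The 12 markers of macrophages and leukocytes summed to 520.4 to 644 TPM against 5.92 to 23.04 TPM, most of it the invariant chain Cd74 at 523 and 429 TPM, and 3 of the 11 tested were called higher. Complement subunit C1qb, a microglial marker, stood at 53.6 and 44.3 TPM in stabilized posterior pituitary and was listed at 0 in both WT cerebellum libraries, and the macrophage lysozyme Lyz2 was at 85.3 and 66.4 TPM against 4.09 and 1.79. The 10 mural markers ran the other way, with sums of 48.5 to 55.01 TPM against 877 to 1063 TPM, and 6, Notch3 among them, were called lower. The pericyte gene Rgs5 stood at 36.2 and 30.9 TPM against 548 and 488 and Vtn at 0.935 and 0.585 TPM against 335 and 279. The 14 endocrine markers of the pituitary summed to 348 to 813 TPM against 33.2 to 36.6 TPM, most of it Pomc at 329.5 and 800.0 TPM, against 27884 to 41600.5 TPM in the GFP-negative cells of stabilized posterior pituitary. The 6 erythrocyte markers were at 1344 to 4071 TPM against 7180.4 to 65249.5 TPM, and Hba-a1 was called lower. The labelled cell type was present in both groups: the 10 EC markers summed to 1943 to 2234 TPM in stabilized posterior pituitary and 3325 to 4146 TPM in WT cerebellum, against 4.56 to 35.02 TPM in the GFP-negative cells of stabilized posterior pituitary. In those GFP-negative cells microglial and macrophage markers were also lower, at 51.4 to 115 and 21.0 to 83.3 TPM. In GFP-negative cells of WT cerebellum mural markers were lower than in GFP-positive ones, at 155 to 355 TPM. Microglial and macrophage markers were higher there than in GFP-positive cells, at 147 to 201 and 70.4 to 89.9 TPM. Lists for neurons, fibroblasts and lymphatic ECs held no call. Of 7 oligodendrocyte markers tested, 2 (Mbp and Mobp) were called lower. Called higher were 1 of 8 astrocyte markers (Gja1), 1 of 6 pituicyte markers (Col25a1) and 1 of 6 markers of choroid plexus epithelium (Aqp1). What part these other cells had in any gene below was not tested, and in such bulk libraries fewer cells of a type cannot be told apart from less RNA per cell.

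**Figure D1:**
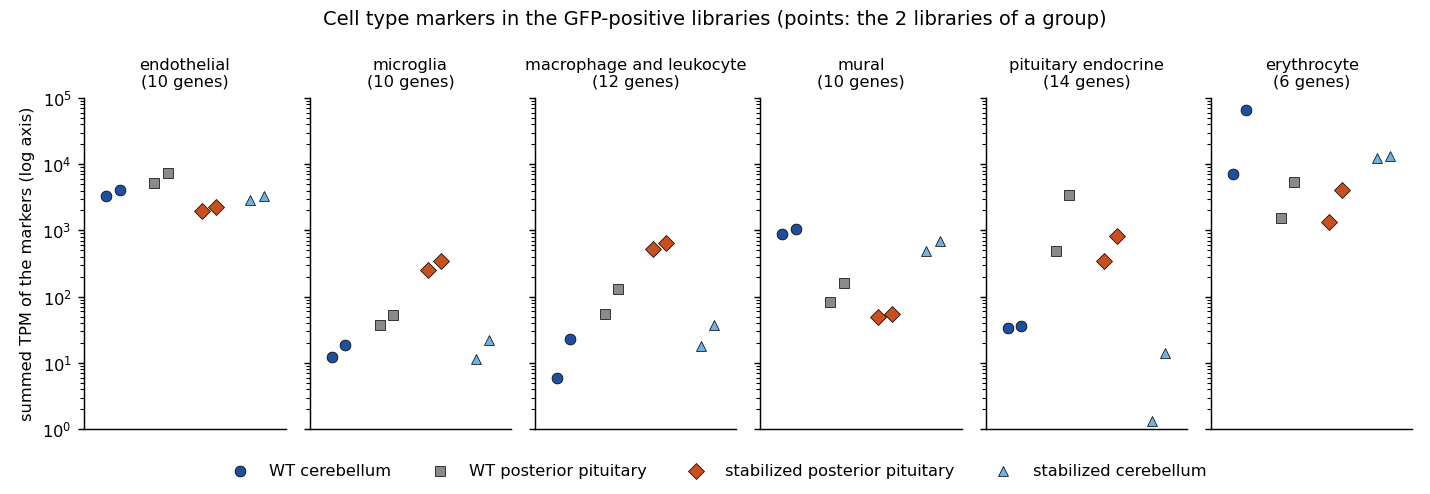
Summed TPM (log axis) of 6 marker lists in the GFP-positive libraries of 4 groups, with 1 point for each of the 2 libraries of a group, the lower drawn first. Microglial and macrophage markers are highest in stabilized posterior pituitary (257 to 346 TPM for microglia) and mural markers highest in WT cerebellum (877 to 1063 TPM), while endothelial markers span 1943 to 2234 TPM in stabilized posterior pituitary.

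Of 17915 genes tested with edgeR's quasi-likelihood test, 323 (1.8%) were called higher in ECs of stabilized posterior pituitary than of WT cerebellum and 275 (1.54%) lower, at an adjusted p under 0.05 and a change of at least 2-fold. The median log2 fold change over all genes was 0.02, and 2404 genes had an unadjusted p under 0.05. ECs of the unaltered posterior pituitary differed from WT cerebellum at 376 higher (2.1%) and 412 lower genes (2.3%), and stabilized differed from WT posterior pituitary at 224 higher (1.25%) and 97 lower genes (0.541%). These 3 comparisons share libraries, so their counts stand side by side only. The counts moved with the settings: DESeq2 called 833 higher and 610 lower, and without replicate 1 of stabilized posterior pituitary 101 genes were called lower and without its replicate 2 157.

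EC enrichment means a call of at least 2-fold over the GFP-negative cells of the same tissue and genotype. It also required at least 10 TPM in both GFP-positive libraries. The filter sets aside transcripts of the GFP-negative cells but does not keep to endothelial transcripts alone. Genes of other cells that were sorted as GFP-positive can pass it, as Cd74 of the macrophage list did in stabilized posterior pituitary. EC enrichment held for 825 genes in stabilized posterior pituitary and 795 in WT cerebellum, with 423 in both. Among the 423, 59 were called lower in stabilized posterior pituitary, 27 higher and 337 neither. Of the genes called lower, 130 were enriched in WT cerebellum ECs, and in all 130 the TPM of both groups did not overlap. Of the genes called higher, 124 were enriched in stabilized posterior pituitary ECs at 10 TPM or more, 116 of them without overlap in TPM. Since a call on counts came first, the lack of overlap is a description of those genes.

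Beta-catenin itself was measured at the gene Ctnnb1, where the estimates were 805 and 827 TPM in stabilized posterior pituitary and 928 and 1664 TPM in WT cerebellum. The groups did not overlap in TPM, but the log2 fold change on counts was -0.34 ± 0.30 (estimate ± standard error) with an adjusted p of 0.697. A sum over the gene cannot show the loss of exon 3 and so does not check the genotype.

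Some feedback genes and targets of the Wnt pathway rose with stabilization. Of 18, 6 were called higher in stabilized than in WT posterior pituitary, against 1.25% of all genes. Of 18 tested, none was called higher and 1 lower against WT cerebellum, where 1.54% of all genes were lower, with a median log2 fold change of -0.01 and a range from -8.10 to 2.02, where WT posterior pituitary had 8 lower, against 2.3%, and a median of -3.85. On TPM the list stood lower, at a median of 53.4% of WT cerebellum over its 10 genes at 10 TPM or more there. Nkd1, an inhibitor of Dishevelled, rose from 1.797 and 0.0129 TPM in WT posterior pituitary to 27.7 and 40.1 TPM in stabilized posterior pituitary, against 27.5 and 23.2 TPM in WT cerebellum. Both stabilized values lay above both cerebellar ones. The log2 fold change was 0.84 ± 0.62 against WT cerebellum (adjusted p = 0.602) and 7.56 against WT posterior pituitary (adjusted p = 0.000544). Axin2, a scaffold of the complex that degrades beta-catenin, stood at 26.7 and 28.1 TPM against 30.2 and 41.5 TPM in WT cerebellum and 0.356 and 0.405 TPM in WT posterior pituitary. The receptor gene Tnfrsf19 was listed at 0 in both WT posterior pituitary libraries and reached 26.99 and 31.2 TPM, which overlapped the 29.3 and 44.4 TPM of WT cerebellum. For Axin2 and Tnfrsf19 the log2 fold changes against WT cerebellum were -0.03 ± 0.93 and 0.26 ± 0.46, neither of them called (adjusted p = 1 and 0.914), and the sign of both turned under some of the alternative settings. An uncalled difference of this error does not show equal levels. The transcription factor Lef1 stopped at 55.7 and 35.2 TPM against 156 and 119.7, and the Wnt deacylase Notum at 8.404 and 13.8 TPM against 70.9 and 35.1, with adjusted p of 0.701 and 0.552. Prickle1, of the planar polarity branch, was the member called lower, at 2.53 and 2.19 TPM against 26.3 and 23.5 TPM.

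The receptor side of the pathway divided. Reck, which presents Wnt7 ligands together with Adgra2 (Gpr124), stood at 20.3 and 17.3 TPM in stabilized posterior pituitary, above the 12.9 and 10.7 TPM of WT cerebellum, and had been at 6.92 and 5.75 TPM in WT posterior pituitary. Its log2 fold change against WT cerebellum was 0.98 ± 0.28 and was not called (adjusted p = 0.0894). Its partner Adgra2 was at 2.41 and 4.204 TPM against 32.2 and 21.7 TPM and was called lower, with a log2 fold change of -2.88 ± 0.31 (adjusted p = 0.000271). It had been at 6.52 and 2.83 TPM in WT posterior pituitary. The Frizzled receptor Fzd6 and the coreceptor Lrp6 were also called lower, while Tspan12, a coactivator of Norrin signaling, was called higher on counts (log2 fold change 1.200 ± 0.27, adjusted p = 0.0308) although its 176 and 104 TPM overlapped the 79.3 and 107 of WT cerebellum, and 6 of 11 alternatives made the call. Of the 13 receptors and coreceptors, 1 was thus called higher and 3 lower, against 1.8% and 1.54% of all genes. Their median log2 fold change was 0.98 on counts, but on TPM the median was 71.8% of WT cerebellum over the 8 genes at 10 TPM or more there.

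**Figure D2:**
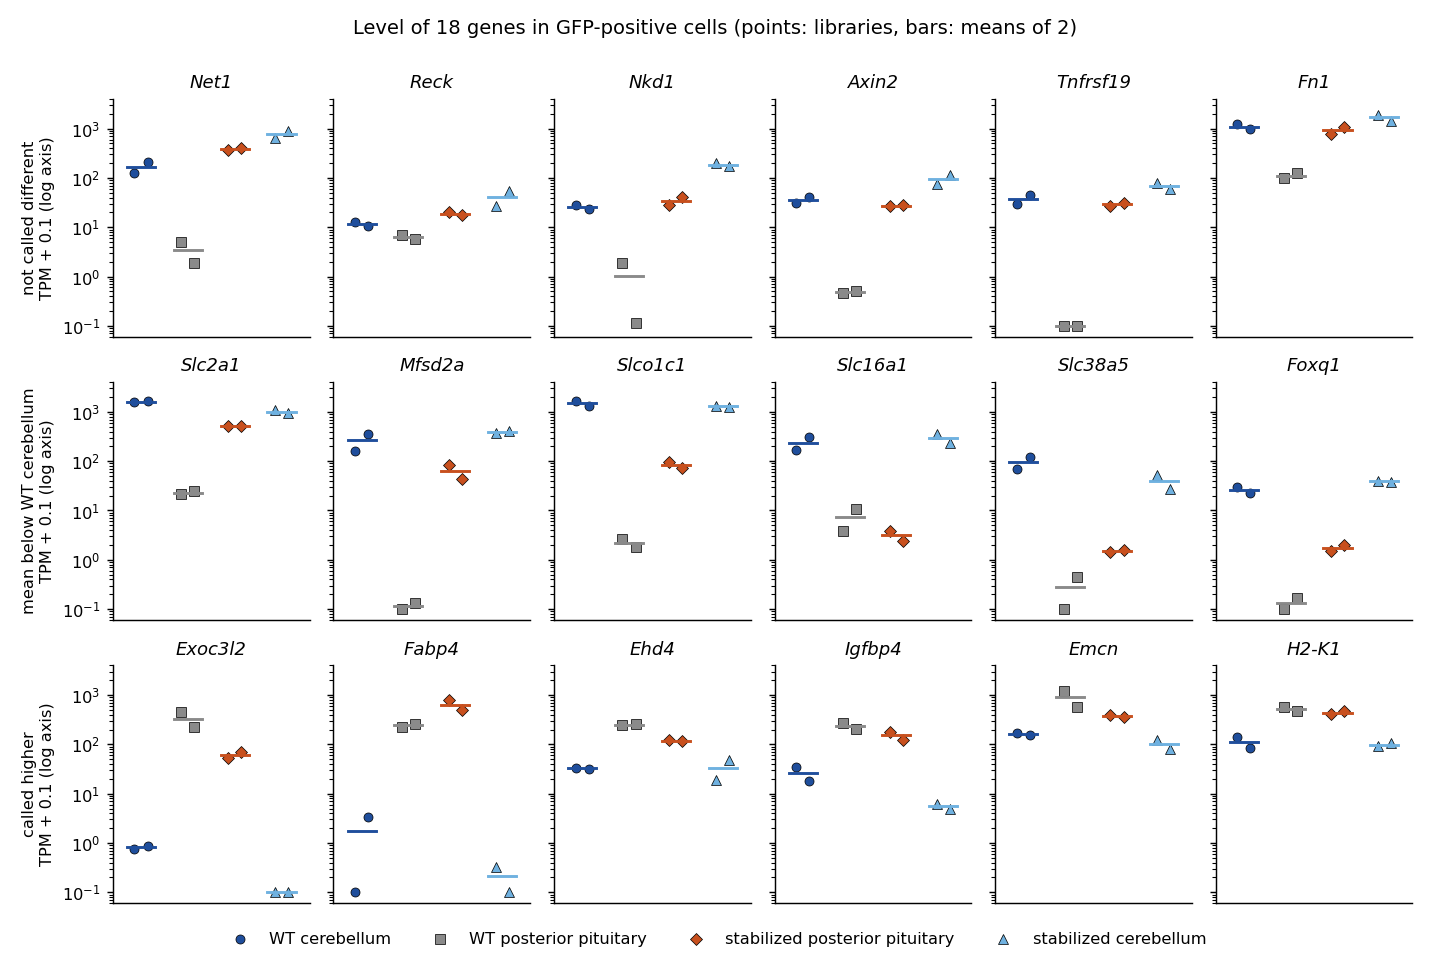
TPM + 0.1 (log axis) of 18 genes in the GFP-positive libraries of WT cerebellum, WT posterior pituitary, stabilized posterior pituitary and stabilized cerebellum, with a point for each library and a bar at the mean of 2. The top row holds genes not called different from WT cerebellum, such as Net1 at 367 and 401 TPM, the middle row genes whose stabilized mean stays below it and the bottom row genes called higher.

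How far genes high in WT cerebellum ECs had come was read from those that differed at the start. These are the 154 genes enriched in WT cerebellum ECs, at 10 TPM or more in both of those libraries, and called lower in WT posterior pituitary than in WT cerebellum. They were not chosen for a barrier function, and the ribosomal protein gene Rpl13 is among them. What part mural cells had in their levels was not tested. Their choice used the WT cerebellum libraries, so the levels are a description without a test. In stabilized posterior pituitary the median gene stood at 23.99% of its mean WT cerebellum TPM, with quartiles of 14.02% and 36.9%, and on TMM-normalized counts at 34.2%. In WT posterior pituitary the medians were 23.3% on TPM and 16.1% on normalized counts, so the scale sets how large the rise of the median looks. By TPM 5 genes lay above both WT cerebellum libraries, 7 overlapped them and 142 lay below, and by normalized counts 9, 6 and 139. In the edgeR fit 87 of the 154 were called lower than WT cerebellum and none higher, against 1.54% and 1.8% of all genes. Genes chosen for being high in WT cerebellum lean to lower calls, so these counts are a description too. At 50% of the WT cerebellum level or more stood 23 genes on TPM and 44 on normalized counts, against 34 and 0 in WT posterior pituitary. Under 10% stood 25 genes on TPM and 17 on normalized counts, against 49 and 57 in WT posterior pituitary.

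The split of the 154 genes by response was uneven. The 57 called higher in stabilized than in WT posterior pituitary had a median of 5.10% of the WT cerebellum TPM in WT and 27.1% in stabilized posterior pituitary, and 47 of them still lay below both WT cerebellum libraries. The other 97 had a median of 34.7% in WT and 22.1% in stabilized posterior pituitary on TPM, and 95 lay below. On normalized counts the direction of these 97 turned, with 25.6% in WT and 31.2% in stabilized posterior pituitary, while the 57 went from 3.76% to 41.7%. The split uses both pituitary groups, so that these levels too are a description.

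**Figure D3:**
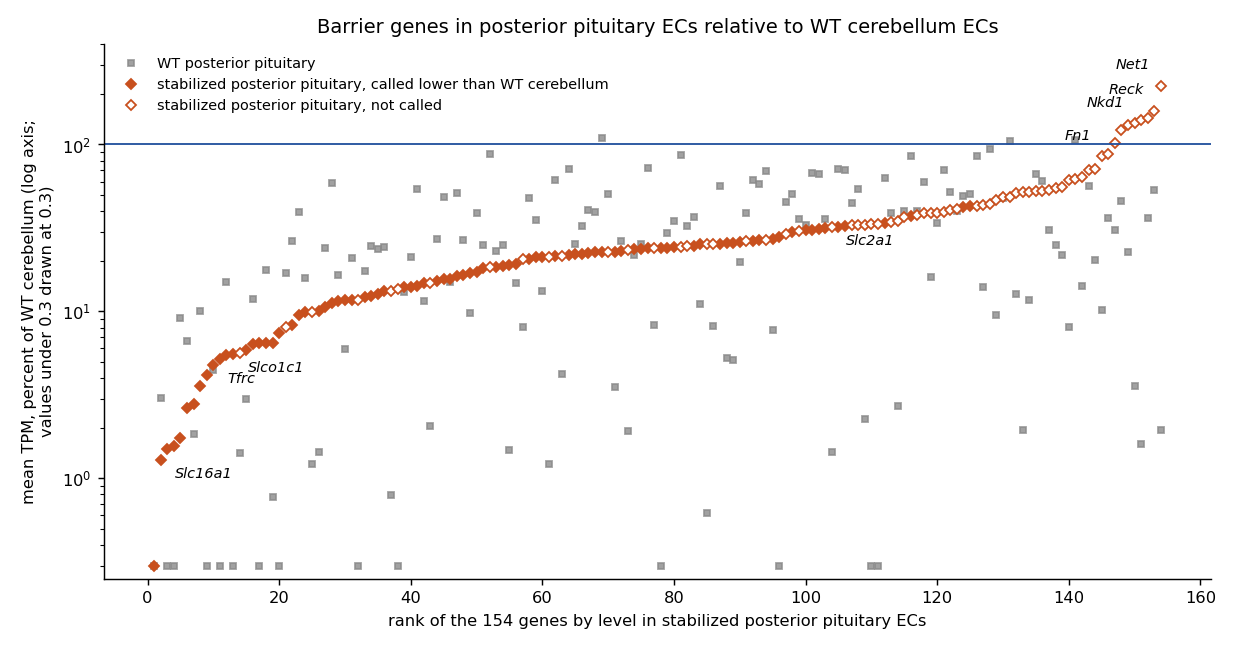
Mean TPM as a percent of WT cerebellum (log axis) for the 154 genes called lower in WT posterior pituitary ECs, ranked by their level in stabilized posterior pituitary (diamonds, filled where called lower than WT cerebellum), with WT posterior pituitary as grey squares. The line marks 100%, which 8 diamonds reach, and the median diamond is at 23.99%. The genes were chosen as high in the same WT cerebellum libraries, which favors lower calls, so the filling is a description.

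The genes that reached or passed the cerebellar level were few and of different functions. Net1, an exchange factor for RhoA, had the highest percent on TPM, with 367 and 401 TPM against 129 and 212 TPM in WT cerebellum and 4.83 and 1.82 TPM in WT posterior pituitary. Its mean was 226% of WT cerebellum on TPM and 165% on normalized counts, where Rpl13, Reck, Selenop, Nkd1 and Cd59a stood higher, and the log2 fold change was 0.72 ± 0.51 (adjusted p = 0.568). Cd59a, an inhibitor of the complement attack complex, reached 82.9 and 113 TPM against 103 and 47.8, with overlap, and the selenium carrier Selenop 2668 and 2106 TPM against 2035 and 1887, without overlap. Kbtbd11 was at 55.4 and 185 TPM against 49.8 and 122, with a wide spread between replicates in both groups. The fibronectin gene Fn1, which encodes a matrix protein, rose from 97.4 and 126 TPM in WT posterior pituitary to 785 and 1075 TPM, against 1218 and 962 TPM in WT cerebellum, and the groups overlapped. Its mean was 85.3% of WT cerebellum on TPM and 134% on normalized counts. Dennd4c stood at 102%. The ribosomal protein gene Rpl13 stood at 143%, a value left uncertain by its processed copies in the genome. None of these genes was called different from WT cerebellum, and Net1, Nkd1, Cd59a, Selenop, Kbtbd11, Fn1 and Rpl13 were all called higher in stabilized than in WT posterior pituitary.

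Barrier transporters held more genes called lower than any other of the 21 lists of function. Of 26 tested, 16 were called lower than WT cerebellum and none higher, against 1.54% of all genes called lower, and the median log2 fold change was -1.70. The same 26 had 24 lower and a median of -6.33 in WT posterior pituitary, where 2.3% of all genes were lower, and 17 rose with stabilization, against 1.25% of all genes. On TPM the rise looked smaller. The 26 summed to 1991 to 2115 TPM in WT and 2032 to 2150 TPM in stabilized posterior pituitary, against 8246 to 9008 TPM in WT cerebellum. Their median was 22.5% of WT cerebellum over the 24 genes at 10 TPM or more there. Of the 16 lower calls, 9 were made in each of the 11 alternative settings. Slc2a1, the glucose carrier GLUT1, rose from 21.1 and 24.8 TPM in WT posterior pituitary to 511 and 511 TPM, 31.9% of the 1579 and 1625 TPM in WT cerebellum. Its values lay below both cerebellar libraries, but the test missed the threshold narrowly (log2 fold change -1.26 ± 0.33, adjusted p = 0.0583). With the replicate number as a block in the edgeR fit, Slc2a1 was called lower (log2 fold change -1.25, adjusted p = 0.0316). Mfsd2a, which carries docosahexaenoic acid as a lysolipid and restrains transcytosis, came from 0 and 0.0335 TPM to 82.5 and 44.4 TPM against 164 and 364 TPM and was called lower (log2 fold change -1.61 ± 0.39, adjusted p = 0.0431). Slco1c1, a carrier of thyroxine, came from 2.51 and 1.72 TPM to 94.5 and 73.7 TPM but remained at 5.56% of the 1679.9 and 1345 TPM in WT cerebellum. The organic anion carrier Slc22a8 reached 7.33 and 6.13 TPM against 158 and 168, and the iron exporter Slc40a1 (ferroportin) 17.1 and 18.7 TPM against 367 and 321, which was 5.21% on TPM and 15.3% on normalized counts. These 5 all rose above the unaltered posterior pituitary and all stayed under 35% of WT cerebellum on TPM.

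Other carriers stayed under 10% of the cerebellar level, with or without a rise. Slc16a1, the monocarboxylate carrier MCT1 that takes up lactate and ketone bodies, was at 3.81 and 2.295 TPM in stabilized and 3.67 and 10.6 TPM in WT posterior pituitary, against 165 and 309 TPM in WT cerebellum. The log2 fold change was -5.797 ± 0.65 against WT cerebellum (adjusted p = 0.0003301) and -0.59 against WT posterior pituitary (adjusted p = 0.673). Its chaperone Bsg (basigin) was at 207 and 175 TPM against 2873 and 3597 TPM, 5.91% of WT cerebellum, although called higher than the 120.3 and 73.4 TPM of WT posterior pituitary. The glutamine carrier Slc38a5 stood at 1.35 and 1.49 TPM against 68.7 and 122 (log2 fold change -5.995 ± 0.95, adjusted p = 0.00435). Its relative Slc38a3 was at 10.9 and 1.64 TPM against 216 and 200.2, and the glutamate carrier Slc1a1 at 4.11 and 2.97 TPM against 48.3 and 60.5. The transferrin receptor Tfrc, which brings iron into the brain, was at 10.1 and 3.03 TPM against 148 and 127, 4.77% of WT cerebellum, and at 10.6 and 1.72 TPM in WT posterior pituitary, where replicates differed widely. All of these were called lower than WT cerebellum, while on counts Bsg, Slc38a3 and Tfrc were called higher than in WT posterior pituitary, a rise that the TPM of Tfrc did not show, and Slc16a1, Slc38a5 and Slc1a1 were not. The metal carrier Slc39a8 stood at 61.7% of WT cerebellum, with 38.2 and 41.5 TPM against 5.74 and 4.63 TPM in WT posterior pituitary, and was called higher than there (adjusted p = 0.000148). Slc3a2, the heavy chain of amino acid exchangers, stood at 48.6%, from 104.6% in WT posterior pituitary on TPM, and its change on counts was not called (log2 fold change 0.74, adjusted p = 0.198).

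Efflux pumps and junctions stood between these extremes. Abcg2 (BCRP) was at 420.1 and 342 TPM against 349 and 248 TPM in WT cerebellum, with overlap, and Abcb1a (P-glycoprotein) at 394 and 85.7 TPM against 1299 and 924, which did not pass the test (log2 fold change -1.35 ± 0.34, adjusted p = 0.05397). Abcb1a was called lower in the edgeR fit with the replicate number as a block (log2 fold change -1.37, adjusted p = 0.0310). Of 6 pumps tested 1 was called higher and 1 lower, with a median of -0.17, where 1.8% of all genes were called higher and 1.54% lower. Of 16 tight junction genes 3 were called lower, against the same 1.54%, none higher, and their median was -1.14. In WT posterior pituitary 8 of them were lower than WT cerebellum and 1 higher, against 2.3% and 2.1% of all genes, with a median of -0.93. Cldn5, the main claudin of brain ECs, rose from 37.2 and 13.2 TPM to 111 and 135 TPM, 25.6% of the 453 and 511 TPM in WT cerebellum (log2 fold change -1.88 ± 0.45, adjusted p = 0.0411). The scaffold Tjp1 (ZO-1) at 97.4 and 101 TPM against 329 and 337 and the paracingulin Cgnl1 at 17.3 and 24.3 TPM against 104 and 84.2 were also called lower. Occludin (Ocln) was at 55.8 and 53.4 TPM against 206 and 223, not called (adjusted p = 0.3397). None of the 3 junction calls held in all 11 alternatives, which made them in 6 to 9.

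Of 16 transcription factors linked to the barrier state, 6 were called lower and 1 higher, against 1.54% and 1.8% of all genes, with a median of -1.31 that was -1.60 in WT posterior pituitary. Foxq1, a forkhead factor of brain ECs, rose from 0 and 0.0711 TPM to 1.43 and 1.87 TPM, 6.43% of the 29.2 and 22.1 TPM in WT cerebellum. Foxf2 and Foxc1, which ECs and pericytes of the brain both express, stood at 7.24 and 8.65 TPM against 40.9 and 37.2 and at 4.49 and 5.57 TPM against 21.3 and 26.2, and neither was called changed from WT posterior pituitary. Mural marker sums were lower in the same libraries, as given above, and their part in these factors was not tested. Ppard and Tbx3 were also called lower. Of the 6 lower calls 1 was made in all 11 alternatives, and the others in as few as 6. Maf, a factor of sinusoidal ECs and macrophages, was called higher at 5.72 and 5.66 TPM against 0.697 and 0.494. The homeobox factor Meis2, which was in no list, was found in both pituitary groups, with 153 and 129 TPM in stabilized and 124 and 141 TPM in WT posterior pituitary. WT cerebellum held 1 estimated read of Meis2 in both libraries together, a ratio of 11287 with a counting interval of 2025 to 445854.

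Other genes far below the cerebellar level were named by their rank. Ddc, the aromatic amino acid decarboxylase of the enzymatic barrier, was at 4.67 and 0.418 TPM against 193 and 133 TPM in WT cerebellum (log2 fold change -6.400 ± 0.81, adjusted p = 0.00109). Butyrylcholinesterase (Bche) was at 1.08 and 0.3700 TPM against 32.99 and 22.2, and the protocadherin Pcdh19 at 0.372 and 0.1804 TPM against 10.3 and 21.3. On TPM the stabilized means of these genes were under 5% of the cerebellar ones, while on normalized counts Bche was at 6.87%. The semaphorin Sema3c stood at 12.1 and 19.3 TPM against 251 and 319.9, and in WT posterior pituitary it was at 56.1 and 29.6 TPM. The chemokine gene Ccl21a was listed at 0 in both pituitary groups and at 205 and 219.5 TPM in WT cerebellum, but near-identical copies of this gene leave the estimate uncertain, and stabilized cerebellum held 9.596 and 10.8 TPM. The growth factor receptor Igf1r was at 5.003 and 6.34 TPM against 99.5 and 77.99 (log2 fold change -3.43 ± 0.26, adjusted p = 4.22e-05).

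On the other side stood genes of the pituitary capillary that remained above WT cerebellum. Of 13 genes of capillary lipid uptake, 5 were called higher than WT cerebellum and 1 lower, against 1.8% and 1.54% of all genes. Fabp4, a fatty acid binding protein, was at 778 and 501 TPM in stabilized and 229 and 262 TPM in WT posterior pituitary, against 0 and 3.28 TPM in WT cerebellum (log2 fold change 9.13 ± 1.26, adjusted p = 0.00145). Gpihbp1, which anchors lipoprotein lipase to the capillary wall, was at 80.1 and 48.04 TPM against 0 and 1.21, and had been at 417 and 280.2 TPM. The fatty acid translocase Cd36 was at 14.2 and 20.1 TPM against 1.62 and 0.0726, Fabp5 at 32.9 and 41.5 TPM against 0 and 1.24 and the water channel Aqp1 at 235 and 282 TPM against 0 and 0.106. In WT posterior pituitary Cd36 was at 23.95 and 31.7 TPM, Fabp5 at 25.4 and 47.5 and Aqp1 at 21.1 and 23.2, and none of the 5 was called changed from WT posterior pituitary. Aqp1 is also a marker of choroid plexus epithelium. Car4, a carbonic anhydrase of brain capillaries, was the member called lower, at 199.9 and 168 TPM against 1482 and 1147.

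Fenestral and caveolar genes gave 2 calls, both higher, among 10 tested, against 1.8% of all genes. Plvap, the protein of the fenestral diaphragm, was at 576 and 659.9 TPM in stabilized and 1159.7 and 1112 TPM in WT posterior pituitary, and at 0 and 10.7 TPM in WT cerebellum. That difference missed the threshold (log2 fold change 7.003 ± 1.81, adjusted p = 0.0581), and it was called in 8 of 11 alternatives. It was called against stabilized cerebellum, which had 0.0151 and 1.26 TPM (adjusted p = 0.0107). Ehd4, an ATPase that shapes membranes, stood at 120.2 and 118 TPM against 32.7 and 32.3 (log2 fold change 2.23 ± 0.25, adjusted p = 0.000354), and the caveolar coat protein Cavin3 at 37.5 and 47.2 TPM against 19.9 and 12.7.

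Among the other genes with the largest excess were Exoc3l2, Ptgs1, Fam167b and Sema3d. Exoc3l2, an exocyst homolog, was at 52.1 and 69.1 TPM in stabilized and 445 and 222 TPM in WT posterior pituitary, against 0.664 and 0.779 TPM in WT cerebellum (log2 fold change 6.89 ± 0.49, adjusted p = 4.22e-05). Ptgs1, the cyclooxygenase COX-1, was at 55.6 and 59.6 TPM against 0.649 and 0.8901 TPM (log2 fold change 7.32 ± 0.45) and had been at 188 and 84.98 TPM in WT posterior pituitary. Fam167b was at 199 and 179 TPM against 0 and 1.98 and had been at 576 and 296 TPM in WT posterior pituitary. Sema3d, a guidance ligand, was at 11.2 and 11.7 TPM in stabilized and 13.97 and 3.15 TPM in WT posterior pituitary, and its 3 estimated reads in WT cerebellum give a ratio of 1048 with an interval of 358 to 5086. All 4 were thus high in both pituitary groups, and 3 of them stood lower in stabilized than in WT posterior pituitary on TPM. The antisense gene Gm11730 also met the rule at 20.9 and 18.3 TPM and 0 in WT cerebellum, and without strand information its reads cannot be told apart from those of the opposite strand.

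The matrix and growth factor binding genes were mixed. Of 23 basement membrane and matrix genes, 5 were called higher and 2 lower, against 1.8% and 1.54% of all genes, and the median was -0.44. Col15a1, a collagen of permeable capillaries, was at 79.2 and 123 TPM against 0.0365 and 2.05 TPM in WT cerebellum, and at 266 and 440.1 TPM in WT posterior pituitary. Col13a1 was at 17.5 and 24.1 TPM against 0 and 1.67, and the proteoglycan perlecan (Hspg2) at 49.5 and 109.9 TPM against 24.6 and 40.6. Col18a1, whose fragment is endostatin, differed from these in that WT posterior pituitary held 8.37 and 0.804 TPM, so that its 40.9 and 55.4 TPM exceeded both WT tissues. It was called higher in both comparisons (log2 fold change 3.31 ± 0.60, adjusted p = 0.00871 against WT cerebellum, and 5.76, adjusted p = 0.000771 against WT posterior pituitary), but it stayed at 9.29 and 6.49 TPM in stabilized cerebellum. Sparcl1 and the integrin Itga4 were the members called lower. Of 10 genes of the insulin-like growth factor (IGF) system 4 were called higher and 1, the receptor Igf1r, lower, against the same shares. The binding proteins Igfbp3 at 236 and 223 TPM against 4.47 and 23.98, Igfbp4 at 182 and 124 against 34.7 and 18.3 and Igfbp5 at 57.98 and 76.4 against 0.565 and 0.684 all exceeded WT cerebellum, as did the scavenging receptor Igf2r. Of 15 BMP and TGF-beta genes 2 were called higher, against 1.8%, none lower. Bmp6, a ligand of the pathway, was at 8.18 and 17.4 TPM against 0.2097 and 1.12.

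Of 17 interferon and class I antigen presentation genes 8 were called higher, against 1.8% of all genes, none lower, with a median of 1.299. The class I heavy chain H2-K1 was at 413 and 471 TPM against 139 and 82.8 (log2 fold change 2.84 ± 0.29, adjusted p = 0.000197) and had been at 568 and 481 TPM in WT posterior pituitary, and its light chain B2m was at 3444 and 3076 TPM against 875 and 546. The genes H2-Aa, Cd74 and Il1b, which were in no list of function, rose beyond WT posterior pituitary (log2 fold changes of 4.46 and 3.83 for the first pair, adjusted p = 0.000561 and 0.00999). H2-Aa, a class II alpha chain, was at 455 and 333 TPM against 35.4 and 26.3 TPM in WT posterior pituitary, with 2 estimated reads in WT cerebellum, and the invariant chain Cd74 at 523 and 429 TPM against 121 and 54.01 TPM in WT posterior pituitary and 3.55 and 0.941 TPM in WT cerebellum. The cytokine Il1b was at 65.5 and 53.4 TPM, listed at 0 in both WT posterior pituitary libraries and at 1 estimated read in WT cerebellum. In the same libraries the microglial sum given above was 257 to 346 TPM. Cd74 is itself in the macrophage list and makes up most of its sum. Whether the reads came from ECs was not tested. The estrogen receptor Esr1 was at 17.1 and 21.4 TPM against 0 and 0.0518 in WT cerebellum, and stabilized cerebellum held 47.9 and 76.7 TPM. Cyp2e1, a cytochrome P450, was at 17.5 and 21.8 TPM against 0.641 and 0.136, with 55.9 and 45.3 TPM in stabilized cerebellum. They were the 2 of 17 drug and steroid metabolism genes called higher than WT cerebellum, and were not called different from stabilized cerebellum.

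Genes that ECs of all tissues express went both ways. Of 20 pan-endothelial surface and junction genes 2 were called higher and 2 lower, against 1.8% and 1.54% of all genes, with a median of 0.10. The adhesion molecules Pecam1 (232 and 202 TPM against 319.5 and 338) and Cdh5 (112 and 141 TPM against 160.1 and 165) were lower on TPM but not on counts, with log2 fold changes of 0.05 ± 0.24 and 0.26 ± 0.27. The sialomucin Emcn, rich in veins and permeable capillaries, was called higher at 391 and 354 TPM against 166 and 155, as was the C-type lectin Clec14a at 44.8 and 48.5 against 17.1 and 16.8. Flt1 (VEGFR1) was called lower at 99.3 and 147 TPM against 1003 and 507 (log2 fold change -1.57 ± 0.30, adjusted p = 0.0114), as was the phosphatase Ptprb, whereas Kdr (VEGFR2) was not called at 76.1 and 88.8 TPM against 148 and 203. Of 14 pan-endothelial transcription factors, Gata2 and the hypoxia factor Epas1 were called lower, the latter at 71.1 and 100.4 TPM against 369 and 301, and none higher. The VEGF list had 1 lower call (Flt1) among 14, the arterial list 1 (Unc5b) among 16 and the venous list 1 among 12, and none higher. The lists of 20 respiratory chain, 17 immediate early and 16 cell cycle genes had no call in either direction, with medians of 0.38, -0.63 and 2.14.

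**Figure D4:**
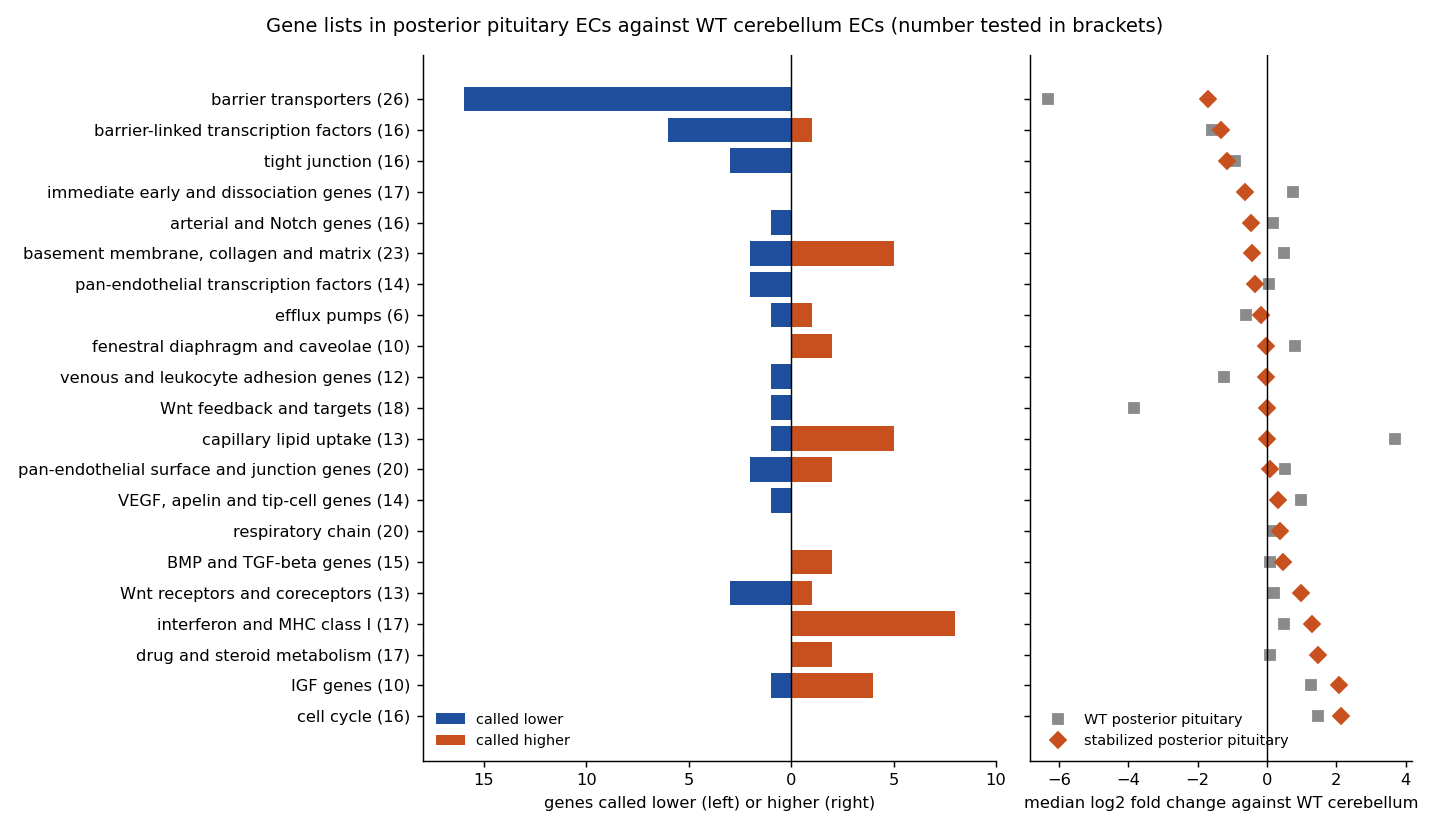
Genes called lower (left of 0) or higher (right of 0) than WT cerebellum in 21 lists, and beside them the median log2 fold change of each list against WT cerebellum for WT (squares) and stabilized posterior pituitary (diamonds). Barrier transporters hold the most genes called lower (16 of 26), while the Wnt feedback list moved from a median of -3.85 to -0.01.

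Setting the same cells against stabilized cerebellum removed the labelled difference in allele, Cre and 4HT and left that of tissue. The share of recombined cells was not compared between the tissues, and markers of other cells differed here too. In stabilized cerebellum microglial markers summed to 11.5 to 22.4 TPM and mural markers to 494 to 692 TPM. In this comparison 798 genes were called higher (4.45%) and 515 lower (2.87%) in stabilized posterior pituitary. Both comparisons use the same stabilized posterior pituitary libraries, so that values are set side by side. Of the Wnt feedback genes 3 were called higher and 2 lower, with a median of -0.80. Nkd1 was at 196 and 174 TPM in stabilized cerebellum against 27.7 and 40.1 TPM, a log2 fold change of -1.82 that was not called (adjusted p = 0.115), and Net1 at 634 and 893 TPM against 367 and 401. The barrier transporters had 16 lower and none higher, with a median of -1.87. Slco1c1 was at 1328 and 1243 TPM in stabilized cerebellum and Slc16a1 at 349.9 and 232 TPM. In the cerebellum itself, stabilized ECs differed from WT ECs at 12 higher (0.067%) and 104 lower genes (0.581%).

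Lists drawn from another method were also read in these libraries. RiboTag libraries, in which ribosomes tagged in ECs are pulled down, gave 255 genes enriched in cerebral cortex ECs and 345 in choroid plexus ECs, a permeable vessel bed. Of the cortex list, 254 were tested and 30 were called higher and 36 lower in the stabilized cells, against 1.8% and 1.54% of all genes, with a median of 0.73. This list is not purely endothelial in the sorted libraries, since it holds 10 of the 22 microglial and macrophage markers. Kept to its 88 genes that were also enriched in sorted WT cerebellum ECs, a choice made after the values were seen, it had 2 higher and 33 lower and a median of -0.97, a shift that the choice itself favors, since genes pass it by being high in WT cerebellum. The other 166 tested had 28 higher and 3 lower, among them C1qa at 111 and 90.4 TPM against 0 and 0.876. Of the choroid plexus list, 338 were tested, 29 were called higher and 20 lower, against the same shares, and the median was -0.42. Its 59 genes enriched in GFP-positive cells of stabilized posterior pituitary, which pass by being high there, had 21 higher and 4 lower and a median of 0.45. Emcn, Gpihbp1, Igfbp3, Hspg2 and Ehd4 were among the higher ones, but so were Cd74 of the macrophage list and the class II gene H2-Aa. This subset is thus not purely endothelial either.

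Open chromatin was compared peak by peak. Peaks numbered 28926 and 38583 in the stabilized posterior pituitary libraries, 26394 and 24020 in WT cerebellum and 21050 and 20634 in WT posterior pituitary, so that the stabilized libraries held more peaks in all. Of the 4510 WT cerebellum peaks missing in WT posterior pituitary, 2366 (52.5%) were present in both stabilized libraries. Within 100 kb of the 154 genes, 270 of 494 such peaks (54.7%) were present. Near the genes above or overlapping the cerebellar level it was 19 of 30, and near those below it 251 of 464, and among peaks above 4-fold it was 10 of 21 and 160 of 339. In the reverse direction, 1307 of the 1676 peaks that WT posterior pituitary had and WT cerebellum lacked (78.0%) were still present in both stabilized libraries, and near the 116 EC-enriched genes called higher it was 79 of 88. Shares of peaks near genes carry no test here.

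Peaks near single genes did not follow their RNA throughout. Around Nkd1, 4 of 7 cerebellum-only peaks were present in both stabilized libraries, around Axin2 4 of 6, around Tnfrsf19 4 of 5, around Lef1 7 of 9 and around Slc2a1 7 of 11. Around Slc16a1 none of 3 was present, around Slc38a5 none of 2, and around Slco1c1 and Tfrc 1 of 4 each. Other genes far below WT cerebellum had most of theirs, with 3 of 3 around Slc1a1, 4 of 5 around Igf1r and 2 of 3 around Ddc. Reck, whose TPM lay above both WT cerebellum values although the difference was not called, had 1 such peak, and it was not present. Around Col15a1 and Exoc3l2 all 6 of the peaks found only in pituitary remained, as did both near Meis2 and both near Fam167b.

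**Figure D5:**
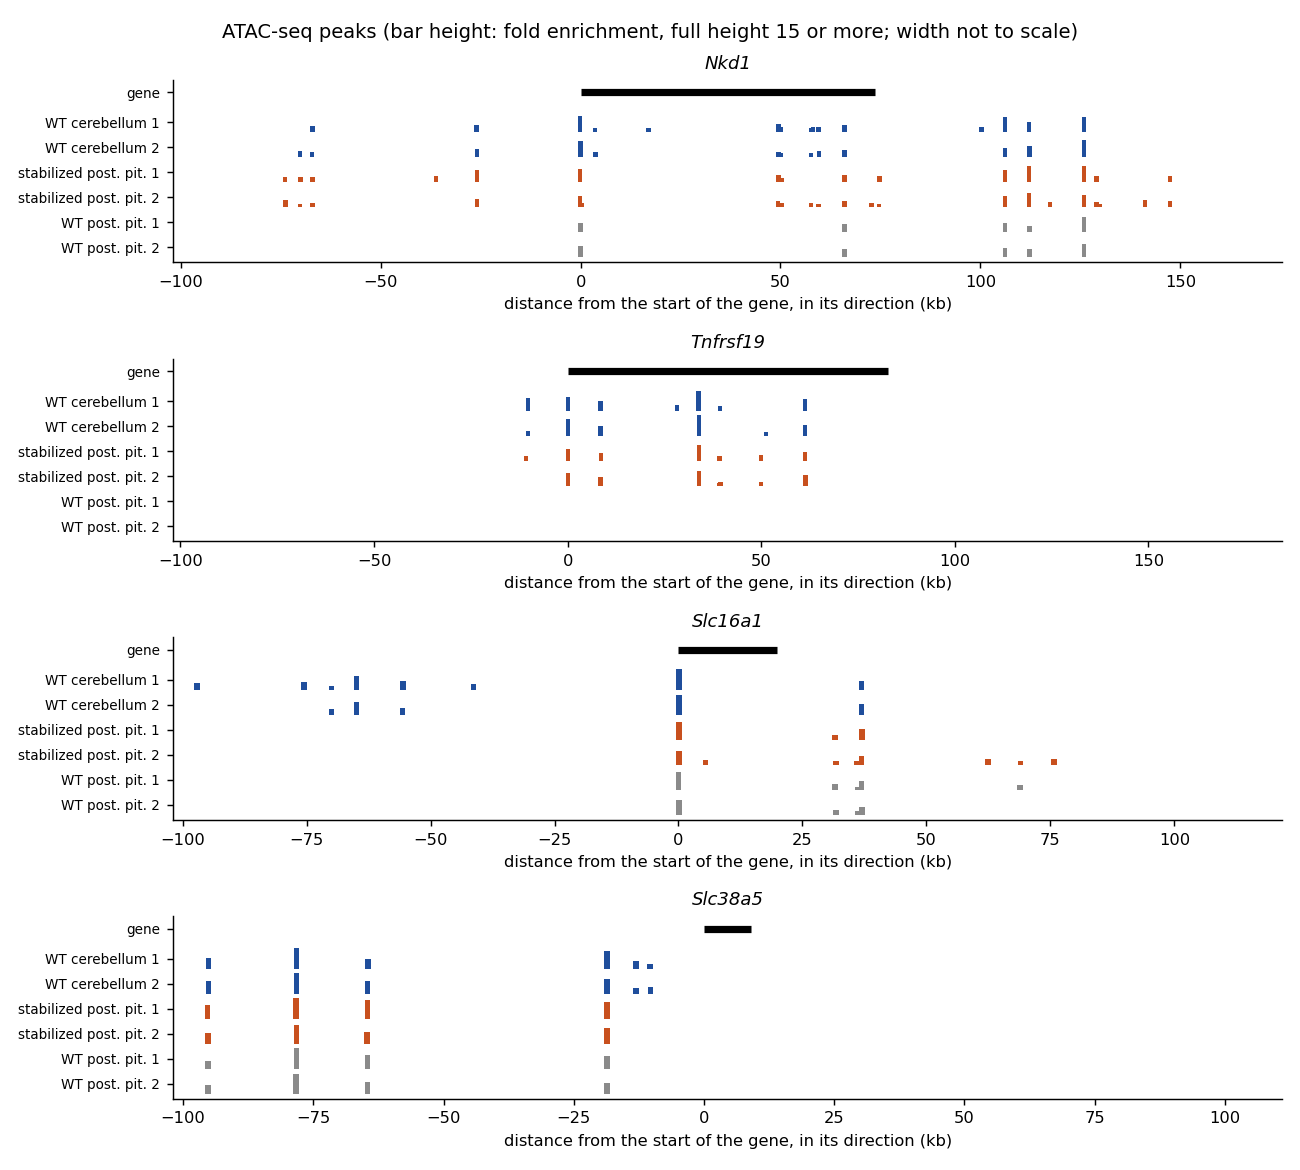
ATAC-seq peaks of 6 libraries around 4 genes against distance from the start of the gene in kb, with bar height giving fold enrichment. Peaks of WT cerebellum reappear in stabilized posterior pituitary around Nkd1 and Tnfrsf19, and the upstream peaks of Slc16a1 and Slc38a5 that only WT cerebellum holds do not.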

How the data were processed

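RNA was measured in GFP-positive and GFP-negative sorted cells and in RiboTag immunoprecipitates, and open chromatin by ATAC-seq in GFP-positive cells. The authors made the deposited expected counts (estimated reads), TPM and effective lengths per transcript with Salmon 0.10.2 against Ensembl release 92 transcripts of GRCm38. Per the authors' methods, ATAC-seq reads were aligned with Bowtie2 2.3.2, duplicates were removed with Picard, and MACS2 2.1.1.20160309 called peaks in each library. The deposited peaks carry a fold ratio over local background and a −log10 q value. From these, expected counts and TPM were summed per gene with GENCODE M21, which matched 130338 of 130740 transcripts, and counts were rounded.

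Groups came from the labels. edgeR 4.0.16 in R 4.3.3 fitted the 12 GFP-positive libraries together (17915 genes after filterByExpr, TMM normalization, 1 coefficient per group, quasi-likelihood test, Benjamini-Hochberg adjustment). Calls required an adjusted p under 0.05 and a change of 2-fold or more. Standard errors are the log2 fold change divided by the square root of F. Separate fits of the 24 sorted libraries and the 16 RiboTag libraries gave EC enrichment and the RiboTag lists. Library totals over the 12 were 17260078 to 33458597 reads. Intervals for genes with 1 to 3 reads in a group are exact at 95% and cover counting error only, and a group at 0 was set to a floor of 3 reads over the group. Peaks were kept at a fold above 2 and −log10 q above 2, were required in both replicates and were matched by an overlap of 1 bp or more.

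The groups, gene lists and tests were chosen with earlier results of these data known. Named genes are the 12 largest and 12 smallest fold changes among called, EC-enriched genes at 10 TPM or more without overlap in TPM, the 12 highest and 12 lowest percents of the WT cerebellum level, 8 genes of each RiboTag list and members of the 21 lists of function and 13 lists of markers. Not every gene that the rule allows is printed, and some are not reported here. With 2 replicates a group, 4 of the 12 libraries (anterior pituitary, of which stabilized replicate 2 is labelled for both lobes) served only to estimate the spread. The alternatives were DESeq2 1.42.0, other scaling, no filter, fewer libraries, a gene length offset, a replicate block and each library left out in turn. The edgeR step was tested on simulated counts with known changes.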

Additional observations from a re-analysis of the deposited data

How the results depend on the processing

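The number of genes called higher than WT cerebellum (323) became 667 without the filter on low counts, 543 with only the 4 libraries compared, 492 without the library labelled for both lobes, 178 with an offset for gene length and 833 with DESeq2, and 248 to 359 with each library left out in turn. The number called lower (275) became 507, 505, 423, 118 and 610 under the same settings, and 101 to 259 with each library left out, where each stabilized posterior pituitary library gave the low values. The median of the RiboTag cortex list (0.73) became 0.76 with RLE scaling, 0.75 without the filter, 0.71 with 4 libraries, 0.76 without the library for both lobes, 0.65 with the length offset and 0.77 with DESeq2, and 0.64 to 0.68 with libraries left out. It turned to -0.97 over the genes enriched in sorted WT cerebellum ECs. The median of the choroid plexus list lay between -0.56 and -0.15 with libraries left out. It turned to 0.45 over the genes enriched in GFP-positive cells of stabilized posterior pituitary. Both subsets were chosen after seeing the data.

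Genes above, overlapping and below the WT cerebellum level numbered 11, 22 and 270 when EC enrichment was not required, while 102 genes of the RiboTag cortex list lay above and 48 overlapped. With normalized counts 9 lay above. With TPM of protein-coding genes, a scale added after seeing the data, 9 lay above and 15 overlapped. With libraries left out 5 to 8 lay above, 2 to 5 overlapped and 142 to 146 lay below. Peaks above 4-fold gave 50.3% present in the genome and 47.2% near the 154 genes. The sign of Axin2 turned with RLE scaling (0.0030), the length offset (0.067) and DESeq2 (0.0024) and ranged from -0.28 to 0.19 with libraries left out. Tnfrsf19 ranged from -0.046 to 0.71 with libraries left out. Dennd4c turned to 0.50 and Pecam1 to -0.13 with the length offset, and Pecam1 ranged from -0.067 to 0.22 with libraries left out. The causes were not tested. Of the 75 named genes that were called, 46 were called in all 11 alternatives.

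Same-numbered replicates of stabilized posterior pituitary and WT cerebellum did not deviate together (r = 0.0054 over 17915 genes). The numbers were therefore not taken to pair these samples, and the other groups were not checked. With the replicate number as a block, 344 genes were called higher and 303 lower, and the medians of the RiboTag lists were 0.74 and -0.33. In the block fit Slc2a1, Abcb1a and Plvap, with log2 fold changes of -1.25, -1.37 and 7.74, were called.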
